A study of Mus musculus with 12 samples.

Results

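The choroid plexus genes described here are 10 transcripts that mark the epithelium of the choroid plexus, namely Ttr, Kl, Folr1, Clic6, Kcnj13, Aqp1, Otx2, F5, Sostdc1 and Kcne2. They were found by matching these symbols to the rows of the deposited table, and all 10 were among the 19312 genes in it. Each had a mean of at least 10 over the 12 mice, so all 10 passed the filter on low values and were tested.

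The choroid plexus is a tuft of folded epithelium, fed by leaky capillaries, that hangs in the brain ventricles and makes cerebrospinal fluid. Its cells pump ions and water from the blood side to the ventricle side, carry vitamins and hormones across, and secrete proteins into the fluid. The tissue is small, is only loosely attached to the ventricle wall and is best known for its very abundant transthyretin transcript.

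RNA-Seq was performed on 12 male C57BL/6N mice at postnatal day 25, with 3 mice in each of 4 groups. WT-Veh and WT-Mem were wild-type mice, and KO-Veh and KO-Mem were mice with a homozygous germline deletion of a pair of Shank2 exons, so that every cell type carried the deletion. Memantine, an NMDA receptor blocker, was given orally in the WT-Mem and KO-Mem groups at 20 mg/kg, 2 times per day over postnatal days 7 to 21, and the WT-Veh and KO-Veh groups received its 0.1% saccharin vehicle on the same schedule. Each library came from 1 mouse without pooling, and pups of both genotypes were reared together. The study's methods name the forebrain without cerebellum and brain stem, while the sample labels name the whole brain, and which ventricles, and so which choroid plexuses, were inside the dissected piece was not stated.

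Values are normalized counts, which are estimated reads per gene after the authors' scaling of the 12 libraries to each other. Relative depth, read from the spacing of the low values, was 0.891 to 1.15 of the mean, and 1 read corresponded to a value of 0.871 to 1.12. Shank2 was 7156 to 8548 in the 6 WT mice and 2706 to 3178 in the 6 KO mice, which separated the labelled genotypes. One library stood apart in region markers: the cerebellar granule cell gene Gabra6 was 253.9 in KO-Veh replicate 3 and at most 12.9 in the other mice, with 6 mice at 0, and the summed level of 7 cerebellar genes was 3125 in it against 411 to 629 elsewhere. The glycine transporter gene Slc6a5, a mark of the brain stem and cord, was 180.3 in WT-Mem replicate 3, 85.6 in WT-Veh replicate 3 and 59.9 in KO-Veh replicate 3, against 12.9 to 35.2 in the other 9 mice. The genotype effect, whose fit holds all 3 of these mice, is given with and without them. The memantine and interaction fits also hold all 3 and were not repeated without them as a set.

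The 10 genes spanned a wide range of levels. Per kilobase of exon, Ttr was at 10360 ± 1914.5 (SD, n = 12 mice). The other 9 genes lay between 18.8 and 67.7 per kilobase. In descending order these levels per kilobase were 67.7 ± 11.8 for Clic6, 50.1 ± 10.5 for Aqp1, 49.8 ± 11.8 for Kcnj13, 48.0 ± 11.4 for Sostdc1, 42.3 ± 6.27 for Kl, 35.7 ± 8.24 for Folr1, 30.5 ± 7.62 for Kcne2, 24.2 ± 3.82 for Otx2 and 18.8 ± 4.04 for F5. Ttr stood clear of the rest, whereas every later gene overlapped its neighbour in this order within 1 SD. All 10 were detected in every mouse. Several of them are also expressed outside the choroid plexus, for example Kl in neurons, Otx2 in the thalamus and hypothalamus, and Aqp1 in red blood cells, so a value is the sum over all cells of the sample.

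The secreted products were examined first. Ttr encodes transthyretin, the carrier of thyroxine in the cerebrospinal fluid. Its normalized counts were 11819, 13833 and 13841 for the WT-Veh mice, 12229, 13339 and 13846 for the WT-Mem mice, 13439, 14665 and 10495 for the KO-Veh mice and 6724, 9864 and 13349 for the KO-Mem mice. KO-Mem replicates 1 and 2 were the lowest of the 12 mice, and KO-Veh replicate 3 was the next, while KO-Mem replicate 3 lay within the WT range, so the groups overlapped in every comparison. Kl encodes klotho, a co-receptor for fibroblast growth factor 23 whose ectodomain is shed into the fluid. Kl counts were 428.5, 485.4 and 468.1 for WT-Veh, 432.3, 358.2 and 381.6 for WT-Mem, 403.1, 419.1 and 374.9 for KO-Veh and 269.7, 352.3 and 357.1 for KO-Mem. Every KO-Mem mouse was below every WT-Mem, KO-Veh and WT-Veh mouse, and every KO-Veh mouse was below every WT-Veh mouse.

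Sostdc1 encodes a secreted antagonist of BMP and Wnt signals, which pattern the dorsal midline in development. Its counts were 86.5, 111.8 and 80.0 for WT-Veh, 94.2, 100.9 and 98.5 for WT-Mem, 114.0, 82.9 and 74.5 for KO-Veh and 44.4, 60.6 and 76.7 for KO-Mem. The 3 KO-Mem values were below all WT values but overlapped the KO-Veh values. F5, the gene for coagulation factor V, had counts of 152.5, 174.5 and 196.2 for WT-Veh, 141.3, 156.8 and 103.2 for WT-Mem, 139.3, 155.5 and 131.5 for KO-Veh and 91.8, 115.2 and 117.6 for KO-Mem. For F5 the KO-Mem mice lay below the WT-Veh and KO-Veh mice but overlapped the WT-Mem mice.

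The transporters, channels and receptors came next. Aqp1 encodes the apical water channel through which much of the fluid passes. Its counts were 112.8, 106.2 and 112.3 for WT-Veh, 152.9, 158.7 and 150.6 for WT-Mem, 145.6, 164.7 and 86.3 for KO-Veh and 102.1, 123.6 and 164.8 for KO-Mem. The WT groups did not overlap and each was tight, with a coefficient of variation of 3.33% for WT-Veh and 2.72% for WT-Mem, whereas the KO groups were spread by 30.9% and 24.5%. Kcnj13 encodes Kir7.1, an inward rectifier potassium channel of the apical membrane. Its counts were 71.7, 85.2 and 78.6 for WT-Veh, 55.1, 68.6 and 60.2 for WT-Mem, 75.6, 75.3 and 45.1 for KO-Veh and 40.4, 43.3 and 60.4 for KO-Mem. WT-Veh was therefore above WT-Mem and KO-Mem without overlap. Kcne2 encodes a small subunit that assembles with Kcnq1 and Kcna3 potassium channels. The Kcne2 counts were 47.2, 46.3 and 79.9 for WT-Veh, 57.5, 62.4 and 66.4 for WT-Mem, 59.1, 61.1 and 45.5 for KO-Veh and 37.7, 30.2 and 53.9 for KO-Mem, and only the KO-Mem and WT-Mem mice were apart.

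Folr1 encodes the folate receptor alpha that moves folate into the fluid, and its counts were 81.9, 67.8 and 93.1 for WT-Veh, 79.0, 94.2 and 81.5 for WT-Mem, 92.2, 121.6 and 66.5 for KO-Veh and 44.2, 73.4 and 87.9 for KO-Mem. Clic6 encodes a chloride intracellular channel family protein, with counts of 205.2, 281.7 and 364.3 for WT-Veh, 254.7, 285.0 and 234.5 for WT-Mem, 265.0, 305.4 and 218.9 for KO-Veh and 208.8, 253.5 and 302.0 for KO-Mem. The groups of Folr1 and of Clic6 overlapped in all 6 pairwise comparisons. Otx2 encodes a homeodomain transcription factor required for choroid plexus development, and its counts were 76.0, 115.7 and 127.8 for WT-Veh, 93.2, 100.5 and 84.8 for WT-Mem, 100.9, 109.6 and 89.6 for KO-Veh and 96.9, 128.9 and 101.5 for KO-Mem. Otx2 also overlapped in all 6 comparisons, and its highest value of the 12 mice was in KO-Mem replicate 2.

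**Figure D1:**
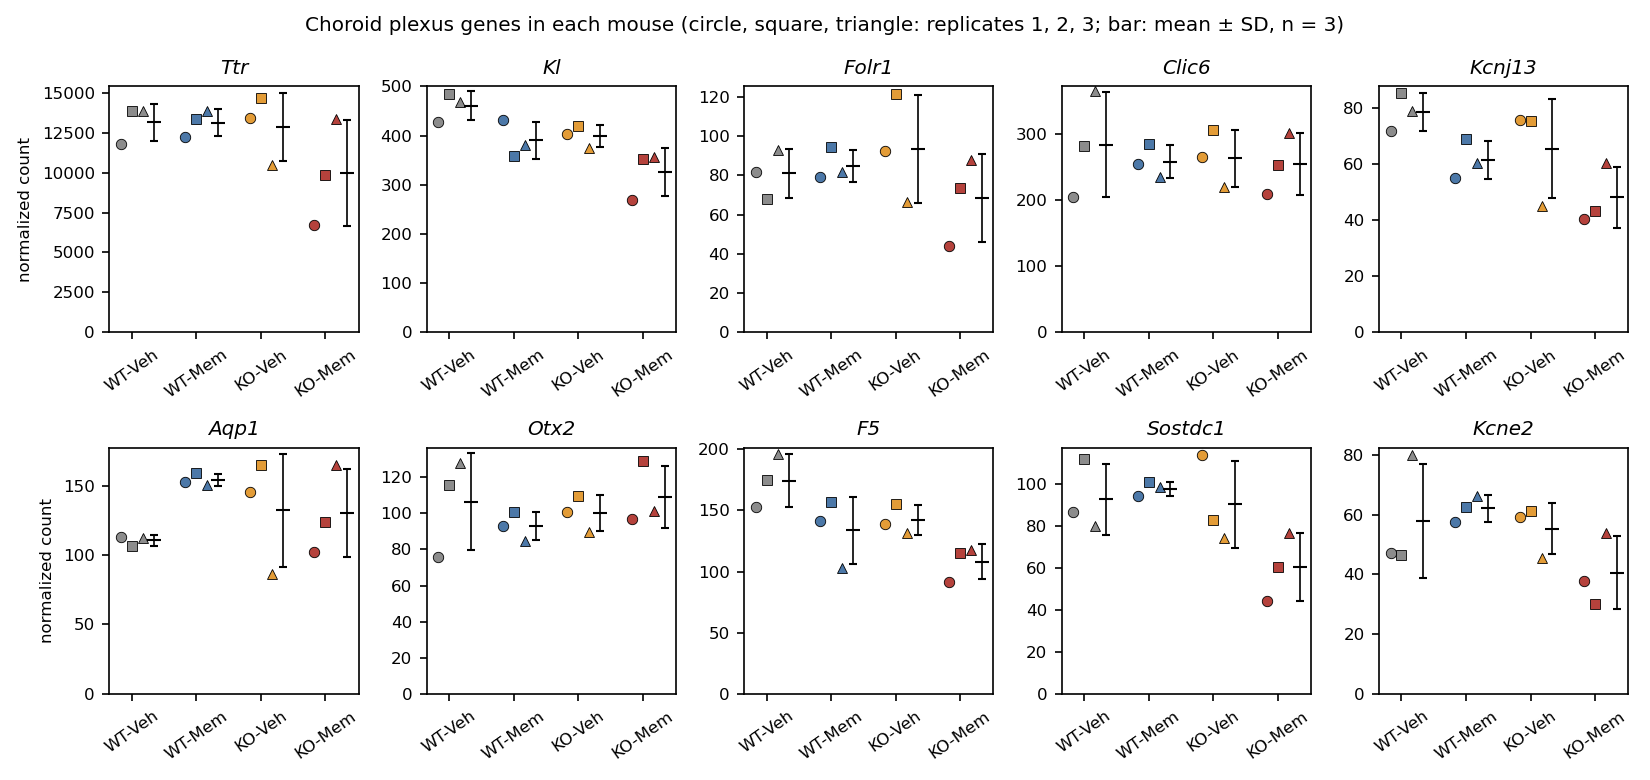
Normalized counts (y axis, linear, starting at 0) of the 10 choroid plexus genes in each of the 12 mice, by group on the x axis, with circle, square and triangle for replicates 1, 2 and 3 and a bar for the mean ± SD (n = 3). KO-Mem replicate 1 holds the lowest value of 6 genes, and Aqp1 separates the WT-Veh mice (106 to 113) from the WT-Mem mice (151 to 159).

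Genotype without drug was compared first (Veh-K/W, KO-Veh against WT-Veh). The 10 genes had a median log2 fold change of -0.05, between -0.30 for Kcnj13 and 0.21 for Aqp1, and 8 of 10 were below 0 (49.6% of all genes). None passed an adjusted p-value of 0.05 in limma, where 0.0283% of the 17671 genes tested passed, and 0 of 10 had an unadjusted p under 0.05, against 14.4% of all genes. Kl was the only member whose groups did not overlap, with means of 399.0 ± 22.4 in KO-Veh and 460.7 ± 29.2 in WT-Veh (SD, n = 3), and 20.4% of all genes showed such separation, 10.7% with the KO-Veh mice lower. Its log2 fold change was -0.21 (SE 0.10, adjusted p = 0.36 in limma).

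Under memantine the genotype comparison (Mem-K/W, KO-Mem against WT-Mem) gave a median log2 fold change of -0.32 over the 10 genes, and 9 of 10 were below 0, where 49.7% of all genes were. Sostdc1 had means of 60.6 ± 16.1 in KO-Mem and 97.8 ± 3.39 in WT-Mem, a log2 fold change of -0.72 (SE 0.22), and Kcne2 had 40.6 ± 12.1 and 62.1 ± 4.45, a log2 fold change of -0.64 (SE 0.25). Neither passed, with limma adjusted p-values of 0.127 and 0.186. Ttr had a log2 fold change of -0.45 (SE 0.19) and a limma adjusted p of 0.217. In all, 0 of 10 genes passed (0.068% of 17646 genes did), 3 of 10 had an unadjusted p under 0.05 (21% of all genes) and 3 of 10 did not overlap, all with KO-Mem lower (26.2% of all genes in either direction and 13.5% lower). This count rested on KO-Mem replicate 3: without it Ttr, Sostdc1 and Kcne2 passed, with log2 fold changes of -0.69, -0.90 and -0.86 and limma adjusted p-values of 0.0146, 0.028 and 0.0488, and 1911 genes in all passed instead of 12.

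Memantine within KO mice (KO-M/V, KO-Mem against KO-Veh) gave a median log2 fold change of -0.40 over the 10 genes, 8 of them below 0 (50.3% of all genes). Sostdc1 (-0.58, SE 0.25), Kl (-0.30, SE 0.13) and F5 (-0.40, SE 0.16) had unadjusted p-values under 0.05, which is 3 of 10 against 8.88% of all genes, and Aqp1 was at 0.0021 (SE 0.26) and Otx2 at 0.12 (SE 0.17). The limma adjusted p-values of the 10 genes ranged from 0.555 to 0.998. No gene of the 17707 tested passed in limma (0%), while 1573 had an unadjusted p under 0.05. F5 and Kl did not overlap between the groups, 2 of 10 against 13.9% of all genes, with KO-Mem lower in both (6.82% of all genes).

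Memantine within WT mice (WT-M/V, WT-Mem against WT-Veh) gave a median of -0.05, with 6 of 10 below 0 (50% of all genes). Aqp1 was 1 of 2 members without overlap, with means of 154.1 ± 4.19 in WT-Mem and 110.4 ± 3.68 in WT-Veh, a log2 fold change of 0.48 (SE 0.13, 95% interval 0.19 to 0.76). The difference exceeded the spread between mice, with an unadjusted limma p of 0.00387, but did not survive adjustment over 17564 genes (adjusted p = 0.978). Its log2 fold change stayed between 0.45 and 0.49 when each mouse was left out in turn. Kcnj13 was the other, with means of 61.3 ± 6.84 and 78.5 ± 6.77 and a log2 fold change of -0.35 (SE 0.18). Such separation was found in 9.34% of all genes, and 0.0114% of genes passed the adjusted threshold, none of them a member. An unadjusted p under 0.05 was found for Aqp1 and Kl, 2 of 10 against 3.97% of all genes. Ttr was close in both groups, at a log2 fold change of -0.00094 with a 95% interval of -0.18 to 0.18.

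Of the 6 comparisons, the median of the members was lowest between treated KO and untreated WT mice (KO-M/WT-V, KO-Mem against WT-Veh), the comparison in which both genotype and drug differ. The median log2 fold change was -0.47, and 8 of 10 genes were below 0 (49.4% of all genes). F5 had means of 108.2 ± 14.2 in KO-Mem and 174.4 ± 21.8 in WT-Veh, a log2 fold change of -0.68 (SE 0.17) and a limma adjusted p of 0.0528. Kl had 326.4 ± 49.1 and 460.7 ± 29.2 (-0.51, SE 0.13, limma adjusted p = 0.0592), and Kcnj13 had 48.0 ± 10.8 and 78.5 ± 6.77 (-0.72, SE 0.22, limma adjusted p = 0.085). Thus 0 of 10 passed, while 3.37% of 17662 genes did; 5 of 10 had an unadjusted p under 0.05 (25.9% of all genes) and 4 of 10, F5, Kcnj13, Kl and Sostdc1, did not overlap, with KO-Mem lower in all 4 (31.1% of all genes in either direction and 15.6% lower). The calls of some members changed with the fit. With the variance estimated from all 12 mice, Kl and F5 passed (limma adjusted p = 0.0182 and 0.024), and without KO-Mem replicate 3, Ttr, Kl, Kcnj13 and F5 passed with 2490 genes in all. Sostdc1 was at -0.63 (SE 0.24, limma adjusted p = 0.138) and stayed above the threshold in every alternative fit.

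WT-Mem against KO-Veh mice (WT-M/KO-V) showed the least: the median was -0.03, the 10 log2 fold changes lay between -0.11 and 0.27, 6 of 10 were below 0 (50.2% of all genes), no member passed (0.0227% of 17648 genes did), 0 of 10 had an unadjusted p under 0.05 (8.94% of all genes) and no member was without overlap (14.9% of all genes). The 6 comparisons share groups, so their values are not independent of each other.

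The 12 mice were then fitted together. For the genotype effect over both treatments, 9 of 10 genes were below 0 (49.1% of all genes) with a median log2 fold change of -0.24. Kl had means of 362.7 in the 6 KO and 425.7 in the 6 WT mice, which is -0.24 as a log2 fold change (SE 0.08, 95% interval -0.41 to -0.06, limma adjusted p = 0.0715). F5 had 125.1 and 154.1 (-0.29, SE 0.12, limma adjusted p = 0.117) and Sostdc1 75.5 and 95.3 (-0.38, SE 0.17, limma adjusted p = 0.155), and these 3 of 10 had an unadjusted p under 0.05 (29.5% of all genes). No member passed, while 10.8% of 17655 genes did. Without the 3 mice with the highest Slc6a5, an alternative chosen after seeing the data, the median of the members was -0.16 and again 0 of 10 passed, with 25 genes called in all. For the memantine effect over both genotypes the median was -0.20 and 9 of 10 were below 0 (49.6% of all genes), with F5 at -0.39 (SE 0.12), Kcnj13 at -0.39 (SE 0.16) and Kl at -0.27 (SE 0.08). Of all 17655 genes 0% passed the adjusted threshold in limma, 1519 (8.6%) and 3 of 10 members had an unadjusted p under 0.05, and the smallest adjusted p of a member was 0.416. For the interaction, which asks whether the drug effect differed between genotypes, the median was -0.24 with 8 of 10 below 0 (51.1% of all genes), Sostdc1 was at -0.67 (SE 0.31), Kcne2 at -0.61 (SE 0.36), Folr1 at -0.53 (SE 0.37) and Aqp1 at -0.48 (SE 0.31). All 10 limma adjusted p-values were at least 0.948, 0% of genes passed, and 840 genes (4.76%), of the members only Sostdc1, had an unadjusted p under 0.05. A difference between the KO-M/V and WT-M/V values of a member was thus not shown.

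**Figure D2:**
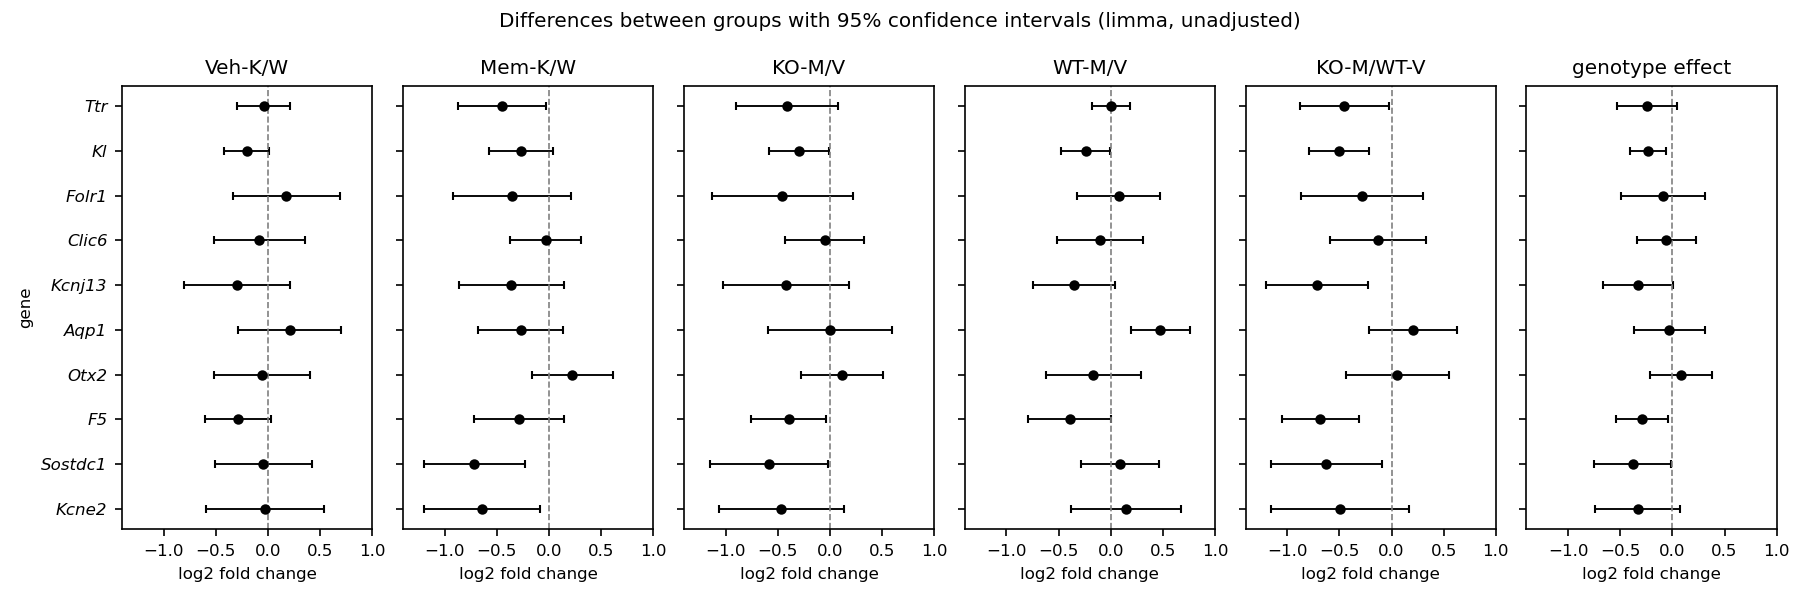
Log2 fold change (x axis) of each choroid plexus gene (y axis) in 5 pairwise comparisons and for the genotype effect over 12 mice, with bars for the unadjusted 95% confidence interval from limma. In KO-M/WT-V the points of F5, Kl and Kcnj13 lie at -0.68, -0.51 and -0.72 with intervals below 0, and none of the members passed the adjusted threshold in any panel.

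Individual animals of the KO groups lay far apart. Taking each gene's log2 value minus its mean over the 12 mice, the mean deviation of the 10 genes was 0.12 ± 0.16 in WT-Veh, 0.07 ± 0.07 in WT-Mem, 0.05 ± 0.25 in KO-Veh and -0.24 ± 0.29 in KO-Mem (SD, n = 3 mice). KO-Mem replicate 1 was at -0.54, with all 10 genes below their mean and 6 of them, Ttr, Kl, Folr1, Kcnj13, F5 and Sostdc1, at the lowest value of the 12 mice. KO-Veh replicate 3 also had all 10 genes below their mean, at -0.24, and KO-Mem replicate 2 had 9 of 10 below, at -0.23, while KO-Mem replicate 3 was at 0.04. At the other end, WT-Veh replicate 3 was at 0.27, with 8 of 10 genes among the highest 3 mice. Mice of 1 group thus lay as far apart as 0.585 in KO-Mem and 0.473 in KO-Veh, against 0.323 in WT-Veh and 0.139 in WT-Mem. In a bulk sample, fewer choroid plexus cells and less RNA per cell cannot be told apart.

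**Figure D3:**
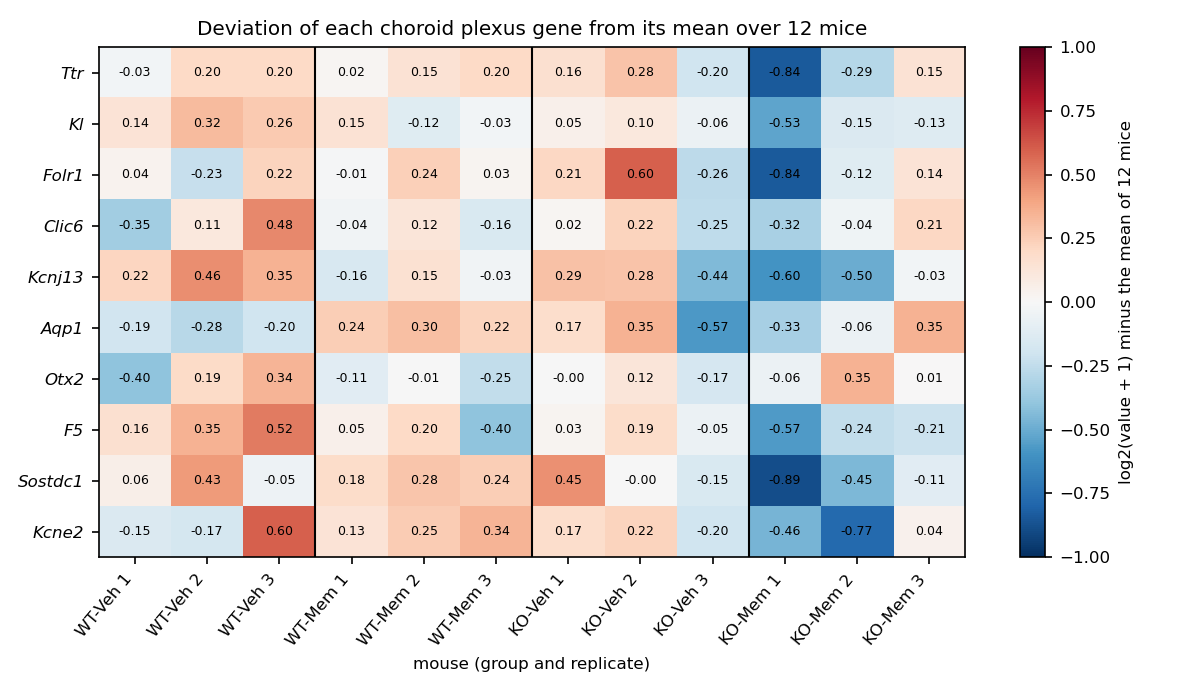
Deviation of log2(value + 1) from the mean of 12 mice for each choroid plexus gene (rows) in each mouse (columns, by group and replicate), with red above and blue below the mean. The columns of KO-Mem replicate 1 (mean -0.54) and KO-Veh replicate 3 (mean -0.24) are below the mean in all 10 rows.

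The spread between mice within groups was wide for Ttr and nearer to that of other genes at the same level for most members. The pooled within-group SD of the log2 values had a median of 0.28 over the 10 genes and of 0.15 over the 17655 genes tested, and it ranged from 0.15 for Kl to 0.36 for Folr1. Since low genes vary more, each gene was set beside those within 0.5 log2 units of its own mean. The SD of Ttr was 0.29, at percentile 99.0 of 381 such genes whose median was 0.08. Clic6 was at percentile 90.3, Aqp1 at 80.6 and Folr1 at 76.8 of their neighbours, and the other 6 genes were between 46.9 and 59.9. The within-group coefficient of variation of Ttr was 19.4%, where counting error at its level would give about 0.916%. For Kcne2, the lowest gene, these were 23.8% and 14.0%, so that counting error was a larger part of its spread.

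The genes varied together across the mice. Over the 45 pairs of members and the 12 mice, Pearson's r had a median of 0.58, from -0.13 for Otx2 with Sostdc1 to 0.86 for Ttr with Folr1, and 42 of 45 were above 0. Over all pairs of genes averaging 50 or more the median r was 0.00. For Ttr with Folr1 Spearman's rho was 0.64, the permutation p-values were 0.00108 and 0.0282, and the values adjusted over the 45 pairs were 0.0154 and 0.106. Of the 45 pairs, 13 had an adjusted permutation p under 0.05 for Pearson's r and 0 for Spearman's rho, whose smallest adjusted permutation p was 0.0599. The relation partly rested on the extreme animals, since the median r was 0.45 without the 2 mice farthest from the median of the gene on the x axis, and 0.37 for Ttr with Sostdc1, which was at 0.85 with them. With the group means removed the median r was 0.57 and all 45 pairs were above 0, between 0.16 and 0.91. Ttr followed the others most closely (median r 0.73 with the other 9 genes) and Otx2 least (0.13, and 0.36 with group means removed). Aqp1 had a median r of 0.39, and 0.61 with group means removed.

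**Figure D4:**
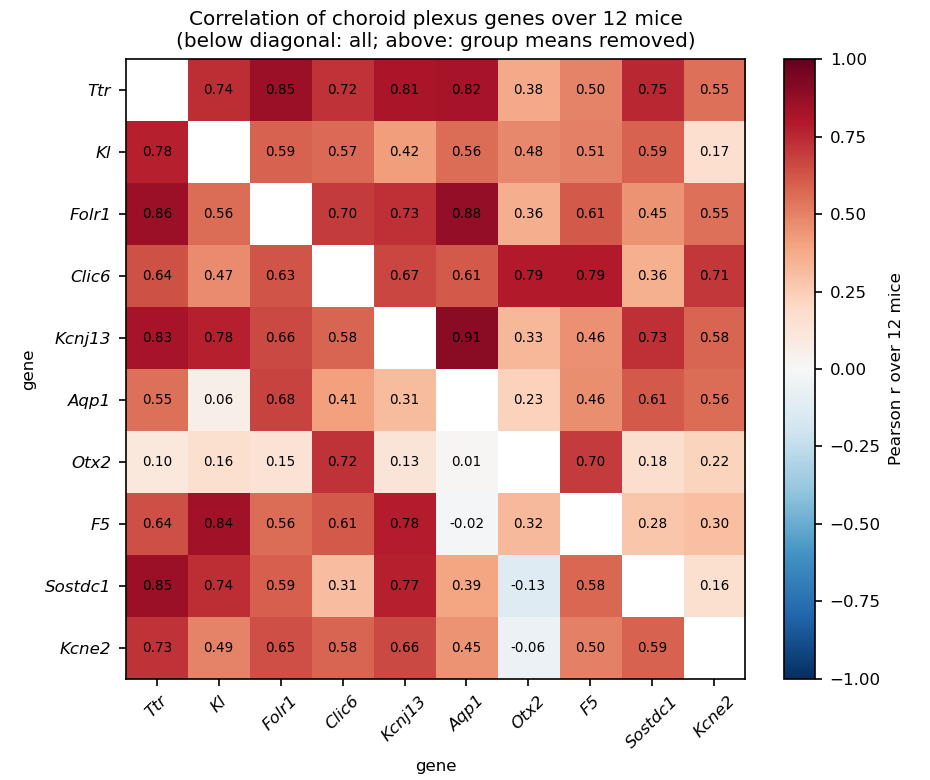
Pearson r over 12 mice between pairs of choroid plexus genes, below the diagonal for all values and above it with the group means removed. Below the diagonal Otx2 has the lowest median r with the others (0.13), and every cell above the diagonal is positive.

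Because the genes varied together, their promoters were searched for a TATA box and for the core site of OTX factors. RefSeq windows on GRCm38.p6 were searched for 6 of the 10 genes (Kcnj13, F5, Kl, Aqp1, Otx2 and Kcne2, 10 windows in all). No window was found for Folr1, Clic6 and Sostdc1, and Ttr was left out of the search. The 100 bases just before the start are shown, on the gene's own strand, for the 3 members with the smallest adjusted p-values in KO-M/WT-V; they overlap no annotated exon, and capitals mark a TATA box, TATAAA, which was searched on the gene strand.
Kcnj13, chr1:87394730-87394829, minus strand: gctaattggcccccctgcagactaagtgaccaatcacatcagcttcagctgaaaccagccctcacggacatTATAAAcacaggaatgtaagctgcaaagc
Kl, chr5:150952507-150952606, plus strand: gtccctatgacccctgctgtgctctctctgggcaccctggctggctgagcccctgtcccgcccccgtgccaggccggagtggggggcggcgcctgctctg
F5, chr1:164151735-164151834, plus strand: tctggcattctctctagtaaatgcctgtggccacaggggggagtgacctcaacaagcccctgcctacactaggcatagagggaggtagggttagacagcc
The Kcnj13 sequence has TATAAA 29 bases before the start and 49% G or C, while the Kl sequence, with 74% G or C, and the F5 sequence, with 56%, do not hold these letters. Over the 250 bases upstream, TATAAA was found in 2 of the 10 windows of members, one of Kcnj13 and one of Otx2, and in 7.59% of the 32851 windows searched. The core bound by OTX homeodomains, TAATCC or its reverse complement GGATTA, was searched on both strands of the same 250 bases. It was found in 1 of the 10 windows, one of 4 for Otx2 itself, and in 6.25% of the 32851 windows searched. That match lies 211 bases before one annotated start and within an exon of other Otx2 transcripts, and its surrounding 30 bases are shown with the match in capitals.
Otx2, chr14:48665303-48665332, minus strand: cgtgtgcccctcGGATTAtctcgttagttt
These matches are descriptions of letters in these windows and were not tested for binding.

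A wider set of choroid plexus genes, 40 in the table and 39 tested over the 12 mice, was examined by role. The transport genes, which move bicarbonate, ions and organic solutes, gave no call in any of the 9 fits, with 13 or 14 of them tested. Their 2 highest members were Trpm3, a cation channel, at 2925 ± 237 in WT-Veh and 3314 ± 386 in KO-Mem, and Slc4a2, an anion exchanger, at 1669 ± 68.8 and 1549 ± 65.0. The junction and epithelial genes (11 tested) gave none either, with Spint2, a protease inhibitor, at 376.1 ± 59.4 in WT-Veh and 475.7 ± 18.4 in KO-Mem and the membrane protein gene Tmem72 at 254.7 ± 23.5 and 203.3 ± 70.4.

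The secreted and matrix genes held most of the calls. Enpp2, the gene for autotaxin, which oligodendrocytes also express, had 12080 ± 398 in WT-Veh, 10967 ± 164 in WT-Mem, 10052 ± 1147 in KO-Veh and 8078 ± 2038 in KO-Mem. Igf2, a growth factor gene that the meninges also express, had 3376 ± 532, 2692 ± 341, 2403 ± 174 and 2271 ± 181 in the same order, and Igfbp2, a binding protein of such factors, had 1193 ± 186, 985.6 ± 63.3, 734.7 ± 153 and 552.9 ± 193. In KO-M/WT-V these genes fell by 0.61, 0.56 and 1.15 on the log2 scale (limma adjusted p = 0.0485, 0.0353 and 0.0304). Wfikkn2, a secreted protease inhibitor and growth factor antagonist, went the other way: it had 65.7 ± 20.8 in WT-Veh and 210.6 ± 61.8 in KO-Mem and rose by 1.66 (limma adjusted p = 0.0243). These 4 were the calls among the 39 tested genes of the wider set, where 3.37% of all genes were called. They depended on the mice included, as did the calls over all genes. Without WT-Veh replicate 2 or 3, 0 of 39 were called, with 3 and 4 genes called in all. Without KO-Mem replicate 1 or 2, 0 of 39 were called, with 1 gene called in all each time. The count was 2 without WT-Veh replicate 1 (54 genes in all, 0.305%) and 11 without KO-Mem replicate 3 (2490 genes in all, 14.1%).

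For the genotype effect over 12 mice, 7 of the 39 genes were called, 4 lower and 3 higher, against 10.8% of all genes. Enpp2, Igf2 and Igfbp2 fell by 0.37, 0.36 and 0.80 on the log2 scale (SE 0.09, 0.08 and 0.14), and Msx1, a homeobox factor of the dorsal midline, fell by 0.56 (SE 0.15). Msx1 was at 155.2 ± 18.2 in WT-Veh, 130.1 ± 16.5 in WT-Mem, 106.1 ± 27.5 in KO-Veh and 90.3 ± 23.2 in KO-Mem. Wfikkn2 rose by 1.07 (SE 0.19), and 2 receptor genes rose: Htr2c, the serotonin receptor gene that is abundant in choroid plexus and also in neurons, by 0.32 (SE 0.06), and Ace, the angiotensin-converting enzyme gene, by 0.28 (SE 0.05). Htr2c was 1864 to 2358 in the 6 WT mice and 2511 to 2905 in the 6 KO mice, and Ace was 845 to 895 and 997 to 1146, so both separated the genotypes completely, as 4.06% of all genes did. The other factors Rfx3 and Rfx2 were not called and had means of 2136 and 146.5 over the 12 mice. When each mouse was left out in turn, Igf2, Igfbp2, Wfikkn2, Htr2c and Ace passed each time, and the largest limma adjusted p was 0.0624 for Enpp2 and 0.0707 for Msx1. Without the variance trend 4 of 39 were called, 1 lower and 3 higher, and Igf2 (limma adjusted p = 0.0521), Enpp2 (0.065) and Msx1 (0.0563) were not among them. Without the 3 mice with the highest Slc6a5, 0 of 39 were called (25 genes in all, 0.142%), with Wfikkn2 at 1.05 (limma adjusted p = 0.0702) and Enpp2 at -0.34 (limma adjusted p = 0.13).

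Genes that act with the members were followed as well. Of 18 partners, 15 were in the table and tested. For the genotype effect 5 were called lower and 1 higher (10.8% of all genes were called). Of those named here, Slc46a1, the proton-coupled folate transporter gene that works with Folr1, fell by 0.35, and Slc5a3, the myo-inositol transporter gene whose product forms complexes with Kcne2 and Kcnq1 in this epithelium, fell by 0.38. Bmp4, a ligand that Sostdc1 binds, fell by 0.40, and Aqp4, the astrocyte and ependymal water channel gene, fell by 0.56, whereas Fgfr1, a klotho-associated receptor gene, rose by 0.16. Aqp4 had means of 4258 ± 410 in WT-Veh, 3623 ± 256 in WT-Mem, 3064 ± 490 in KO-Veh and 2337 ± 428 in KO-Mem. In KO-M/WT-V, where 3.37% of all genes were called, Aqp4 (-0.88, limma adjusted p = 0.0243) and Slc5a3 (-0.57, limma adjusted p = 0.0467) were called. None of the 15 passed in the other 7 fits. The count of called partners changed along with the share of all genes called. For the genotype effect it was 2 without KO-Veh replicate 3 (3.94% of all genes) and without KO-Mem replicate 1 or 2 (4.54% and 4.57%). It was 3 without WT-Veh replicate 2 (6.18%), WT-Mem replicate 1 (5.48%) or WT-Mem replicate 3 (6.07%). Without the variance trend it was 3 (5.06%), and without the 3 mice with the highest Slc6a5 it was 0 (0.142%). In KO-M/WT-V it was 0 without WT-Veh replicate 2 or 3 (3 and 4 genes called in all) and without KO-Mem replicate 1 or 2 (1 gene each). It was 1 without WT-Veh replicate 1 (0.305%) and 6 without KO-Mem replicate 3 (14.1%).

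Some markers of neighbouring tissue moved with the choroid plexus genes in some of the same mice, and others did not. The summed level of 5 blood genes was 19448 to 26320 in WT-Veh, 13301 to 14809 in WT-Mem, 7567 to 18764 in KO-Veh and 5626 to 12528 in KO-Mem, and the 3 lowest mice, KO-Mem replicates 1 and 2 and KO-Veh replicate 3, were the same 3 mice with the lowest mean deviation of the members. The blood list deviated by -1.52, -0.81 and -0.89 (log2) in these mice. The 4 globin genes of the list were called lower for the genotype effect (Hba-a1 -0.64, Hba-a2 -0.78, Hbb-bs -0.84 and Hbb-bt -1.31), and the same 4 in KO-M/WT-V. Of all genes, 10.8% were called in either direction for the genotype effect and 3.37% in KO-M/WT-V. The list of 10 meningeal and stromal fibroblast genes was at -0.72 and -0.49 in KO-Mem replicates 1 and 2 but at 0.10 in KO-Veh replicate 3, and Col3a1 and Col1a2 were called lower for the genotype effect (-0.78 and -0.45), Col3a1 also in KO-M/WT-V. The 10 ependymal genes were at -0.48 in KO-Mem replicate 1 and 0.46 in WT-Veh replicate 3, the mouse with the highest members, and 1 of them, Rsph1, was called lower for the genotype effect (-0.40). None of these 7 genotype calls held without the 3 mice with the highest Slc6a5, where 25 genes (0.142%) were called in all. The log2 fold changes there lay between -0.34 for Rsph1 and -1.08 for Hbb-bt, and all kept their direction. None of the 5 KO-M/WT-V calls held without WT-Veh replicate 3, where 4 genes were called in all. These 5 genes also kept their direction. KO-Veh replicate 3, low in all 10 members, was the mouse with the cerebellar genes. The 6 fenestrated endothelium and border macrophage genes were at -0.16 and -0.08 in KO-Mem replicates 1 and 2 and at 0.27 in KO-Veh replicate 3. Plvap of this list ran opposite to the mean deviation of the members over the 12 mice (r = -0.86). It was 299.9 in KO-Mem replicate 1 and 174.7 to 179.9 in WT-Veh. Mgp, of the meningeal list, had r = -0.44. No other ranked gene of the blood, meningeal, ependymal or endothelial lists had an r below 0. The part of these tissues in the values of the choroid plexus genes was not tested. None of the blood or meningeal genes was at 0 in any mouse.

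**Figure D5:**
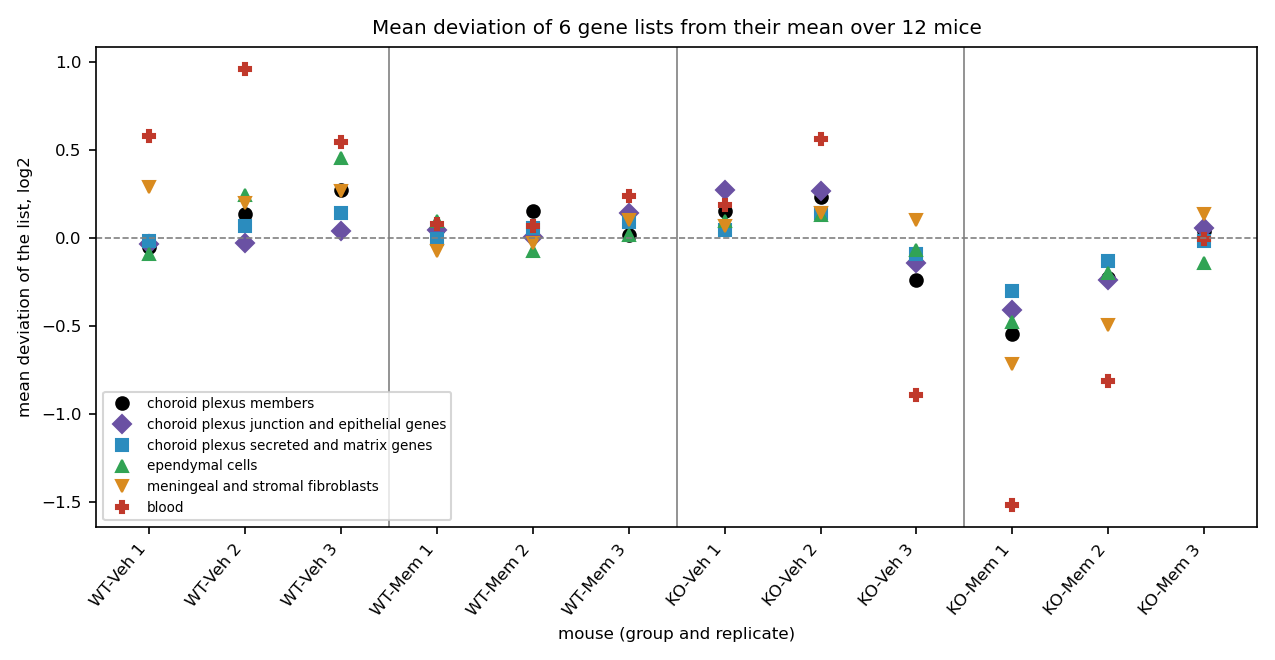
Mean deviation of 6 gene lists (y axis, log2, relative to the mean of 12 mice) in each mouse (x axis, by group and replicate). KO-Mem replicate 1 is below 0 for all 6 lists, from -1.52 for blood to -0.30 for the secreted and matrix genes, and KO-Mem replicate 3 lies between -0.14 and 0.14.

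Among 14241 genes averaging 50 or more, the genes whose log2 values followed the mean deviation of the members most closely over the 12 mice were ranked as a description, since the points share libraries and scaling. Ttr, which is part of that mean, came first with r = 0.95. The 10 closest genes outside the members were Mfrp (r = 0.95), Fam161b (0.95), Actl6b (0.94), Irf3 (0.93), Slco3a1 (0.93), Slc2a4rg-ps (0.93), Zfp773 (0.93), Hdac8 (0.93), Ganab (0.92) and Tmem14a (0.92). Mfrp, a frizzled-related membrane protein gene of the wider choroid plexus set, had counts of 143.9 to 191.4 in WT-Veh, 171.8 to 192.8 in WT-Mem, 110.0 to 233.6 in KO-Veh and 73.4 to 158.2 in KO-Mem. Actl6b, a neuronal chromatin remodelling subunit gene, had 2209 to 2513 in WT-Veh, 2380 to 2460 in WT-Mem, 2094 to 2479 in KO-Veh and 1735 to 2491 in KO-Mem. The first 100 of the 14241 ranks held 4 of the 31 ranked genes of the wider choroid plexus set, 3 of the 5 blood genes and 1 of 6 ependymal genes. They also held 3 of the 10 members, each of which is part of the mean that it was ranked against. The wider set ran both ways: its median r was 0.44, and 10 of the 31 had an r below 0, the lowest being -0.70 for Wfikkn2, -0.62 for Htr2c and -0.62 for Ace.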

How the data were processed

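Brain RNA from 12 mice was sequenced from TruSeq libraries. The deposited signal values are gene-level estimated counts that the authors estimated with Salmon 1.1.0 (GRCm38), summed per gene through tximport and scaled with DESeq2 (1.26.0 in the submitters' processing notes, another release in the study's methods); they are neither whole numbers nor log values. The annotation release and gene filter are not given in the sources used here. Counting error was approximated from the number of reads, after each value was divided by the value of 1 read in its library.

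Symbols, positions and exon lengths came from GENCODE M21. Genes averaging 10 or more in a fit were tested with limma 3.58.1 (R 4.3.3; lmFit, eBayes with trend) on log2(value + 1), so that the fold changes of low genes are understated, with Benjamini-Hochberg adjustment over all genes tested and a threshold of 0.05. Pairwise comparisons used their own 6 mice; genotype, memantine and interaction effects used 12. Correlations used 100000 permutations, two-sided. Likeness was ranked over genes averaging 50 or more, of which the first 10 outside the members are named. From each wider choroid plexus list and from the partners, the 2 genes with the highest mean and every called gene are named, except 1 called partner that is counted but not reported here, and from the lists of other cells and regions the called genes. The members and all lists were chosen with earlier results of these data known. Each mouse is 1 replicate, and the labels do not say which mice shared a litter.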

Additional observations from a re-analysis of the deposited data

How the results depend on the processing

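Counts of called members and median log2 fold changes were recomputed with pseudocounts of 0.5 and 5, with no filter or a mean of at least 50, without the variance trend, under median ratio and upper quartile scaling, with a replicate block, without each mouse and, for the pairs, in 1 fit of 12 mice. The members called were 0 in every comparison and setting except in Mem-K/W and KO-M/WT-V. The former gave 0 to 3 when mice were left out, with 2 to 1911 genes called. The latter gave 0 to 4, with 1 to 2490 genes called, 2 in 1 fit of 12 mice (2067 genes) and 2 with the replicate block (999 genes). The cause was not tested beyond which mouse or fit it was. What the numbers of the mice stand for is not stated, and a shared litter or batch by number was not tested. The correlation of deviations between mice with the same number was -0.175 to 0.08, with none of 18 over 0.1. Slc6a5 was highest in replicate 3 of WT-Veh, WT-Mem and KO-Veh and lowest in replicate 3 of KO-Mem (16.2). The replicate block changed no other count of called members, and in the wider choroid plexus set it gave 7 calls of 39 against 4 in KO-M/WT-V.

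When mice were left out, the median log2 fold change of the members was -0.20 to 0.06 in Veh-K/W, -0.49 to -0.16 in Mem-K/W, -0.53 to -0.17 in KO-M/V, -0.18 to 0.015 in WT-M/V, -0.63 to -0.28 in KO-M/WT-V, -0.12 to 0.09 in WT-M/KO-V, -0.29 to -0.14 for genotype, -0.27 to -0.09 for memantine and -0.44 to -0.052 for the interaction. No called gene changed direction. Of 1498 values of single members recomputed, 73 changed sign, most of them with a mouse left out. None of these 73 was called in the main or the alternative fit. Without the variance trend, KO-M/WT-V gave 0 calls in the wider set and 7 genes in all against 595, and the genotype effect gave 894 genes against 1907. The KO-M/WT-V total was 365 with no filter. The genotype total was 694 to 2683 when mice were left out. The median within-group SD of the members was 0.27 to 0.28 under 4 alternatives.

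With 3 mice a group, the 95% interval of a member had a median width of 0.46 to either side in Veh-K/W and 0.53 in KO-M/V (log2, unadjusted).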

Other observations

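Lists of other structures that share genes with the choroid plexus or lie near it were given by the same fits. The pineal genes (7 of 10 in the table), the subcommissural organ genes (4), the fenestrated endothelium and border macrophage genes (6) and the olfactory bulb (5), hypothalamus (8), cortex (5) and hindbrain (1 of 7) genes gave no call in the 2 fits with calls in other lists. For the genotype effect, Rpe65, a retinal pigment epithelium gene with a mean of 12.2 that was at 0 in at least 1 mouse, was at -1.81 (limma adjusted p = 0.0405), and Tshb, a pituitary gene, was at -0.85 (limma adjusted p = 0.0218). Ramp3, from the thalamus list, was at -0.31 (limma adjusted p = 0.0362), and Slc1a6, from the cerebellum list, was at 0.42 (limma adjusted p = 0.0135) and in KO-M/WT-V at 0.44 (limma adjusted p = 0.045). None of these genotype calls held without the 3 mice with the highest Slc6a5, where 25 genes (0.142%) were called in all, against 10.8% with all 12 mice. The log2 fold changes there were -1.68 for Rpe65, -1.005 for Tshb, -0.32 for Ramp3 and 0.39 for Slc1a6 (limma adjusted p = 0.185, 0.0702, 0.0996 and 0.063). In KO-M/WT-V without WT-Veh replicate 3, where 4 genes were called in all, Slc1a6 had a limma adjusted p of 0.11. All kept their direction. The olfactory bulb list deviated by -1.11 in WT-Mem replicate 3 and lay between -0.38 and 0.53 in the other 11 mice. The subcommissural organ list was at 0.56 in KO-Mem replicate 1, the mouse with the lowest choroid plexus genes.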
